A study of Mus musculus with 8 samples.

Results

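The genes described here are 41 factors of ribosome biogenesis and the nucleolus: subunits of RNA polymerase I, core proteins of small nucleolar ribonucleoproteins (snoRNPs), abundant nucleolar proteins, and assembly factors of the small and large ribosomal subunits. They were chosen by name, with earlier results of these data known. All 41 were found by symbol through their Ensembl gene identifiers among the 48440 genes of the table. RNA came from epithelium of the jejunum of 8 female mice on a C57BL/6J background, all of which carried Sox9-EGFP, in which a fluorescent protein reports the activity of Sox9, a transcription factor of the crypt. Every mouse was raised germ-free at first, and each of 4 littermate pairs (A to D) gave 1 animal to each group. The germ-free animal of a pair stayed without microbes. The other, called conventionalized, was moved to another animal facility at 8 to 10 weeks of age, was gavaged with a slurry of feces from conventionally raised Sox9-EGFP mice, and was studied 2 weeks later. Cells with a low reporter level were collected from both groups, after dying cells (Annexin-V, Sytox-blue), endothelial cells (CD31) and leukocytes (CD45) had been gated out. The comparison asks how the microbiota affects gene expression in this fraction, which is enriched for stem cells. Colonization and the change of facility came together and cannot be told apart.

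Ribosomes are built in the nucleolus, a body that forms around the ribosomal RNA (rRNA) genes. RNA polymerase I transcribes a long precursor, snoRNPs guide the chemical modification of that precursor, and large assemblies of proteins cut, fold and package it into the small and large subunits. Dividing cells need a steady supply of ribosomes, and in the intestine the crypt holds the dividing cells. Transcription of many of these genes is known to respond to the growth regulator Myc. The libraries report the messenger RNAs of the factors, not rRNA or its processing.

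Depth on an approximate read scale ran from 6209041 to 19139685 per library, the lowest being the germ-free animal of pair C, written germ-free C (other libraries are named in the same way). That library also stood apart from its group: its median correlation with the other germ-free libraries was 0.792, against 0.871 to 0.943 for each other library within its own group. Results are therefore given with and without it. Levels are in CPM, the deposited values scaled to a common library total with TMM factors, a correction for libraries whose few strongest genes differ, and means carry ± SD (n = 4 animals per group, conventionalized named first). A positive log2 fold change stands for a higher level in conventionalized animals, on log2(CPM + 0.5), with its standard error (SE), from limma with n = 4 animals per group, and p-values were adjusted by the Benjamini-Hochberg method over the 10053 genes that reached 10 CPM in 4 or more libraries. Coordinates are on GRCm38. Values listed per group run in the order of pairs A, B, C and D. Sox9, the gene behind the reporter, was at 378 ± 109 against 246 ± 82.7 CPM (adjusted p = 0.241). None of 8 leukocyte markers reached the minimum, and their summed level was 5.02 to 23.1 CPM in conventionalized and 11.3 to 22.7 CPM in germ-free libraries, most of it from Ptprc, which encodes the CD45 of the gate. Ptprc was at 2.60, 14.1, 18.7 and 3.12 CPM in conventionalized and 8.25, 7.08, 19.5 and 9.68 CPM in germ-free libraries, over 10 CPM in conventionalized B and C and in germ-free C. Cd3e and Itgax were each under 1 CPM on average in both groups. Conventionalized A stood apart in several marker lists. In that library 7 goblet cell markers summed to 49675 CPM, against 1397 to 5843 CPM in the other conventionalized and 3798 to 8016 CPM in germ-free libraries. Its summed enterocyte markers were at 3891 CPM, against 982 to 1652 CPM in the other conventionalized and 2124 to 5384 CPM in germ-free libraries. Its tuft cell markers had the lowest sum of all 8 libraries (67.7 CPM).

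Of the 41 genes, 40 reached the expression minimum, and Npm3 did not. No member passed the test: limma called 0 of 40 higher and 0 lower at an adjusted p under 0.05, against 1.16% of all tested genes called higher and 4.92% called in either direction. All 40 fold changes were positive, as were those of 70.2% of all tested genes, and 27 had an unadjusted p under 0.05 (19.7% of all tested genes were higher with such a p). The median log2 fold change of the members was 0.87, against 0.32 for all tested genes. The median of all genes depends on the scaling: with library size as the only scaling it was 0.088, and that of the members 0.63, with 39 of 40 positive. Relative to the median of all tested genes, 39 of the 40 lay above it with TMM scaling, and Bysl lay below.

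The count of calls depended on how the littermates were treated. With littermate pair as a block in the model, 12 of 40 members rose and 0 fell, while 8.08% of all tested genes were called higher and 13.1% either way. Those 12 were Mybbp1a, Fbl, Nop56, Gar1, Dkc1, Ncl, Nolc1, Utp15, Wdr43, Noc4l, Ppan and Ftsj3. Other tested members with values per animal below were not called with the block. Their limma adjusted p was 0.0518 for Nhp2, 0.0545 for Npm1, 0.0572 for Heatr1, 0.0791 for Polr1b and 0.118 for Noc3l. It was 0.145 for Utp18, 0.508 for Polr1a and 0.777 for Bysl. With germ-free C left out and no block, limma called 0 of 40 (2.42% of all tested genes were called higher, 6.08% either way), with 13 at an unadjusted p under 0.05 (12.8% of all tested genes higher with such a p). All 40 fold changes were smaller than with all 8 libraries. Their median was then 0.52, against 0.22 for all genes, and 39 of 40 were positive (68.9% of all genes). With the block and all of pair C left out, 0 of 40 were called (1.85% of all genes higher, 4.86% either way), 14 had an unadjusted p under 0.05 (14.2% of all genes higher with such a p), and the median was 0.69. The 12 calls with the block were thus lost without pair C, in a fit with fewer libraries, while the median stayed above that of all genes (0.34 in that fit). Array quality weights, which give less weight to variable libraries, gave 8 members that rose (7.61% of all genes higher). Leaving out germ-free B gave 2, Fbl and Gar1 (4.17% of all genes higher, 7.95% either way). Without both conventionalized A and germ-free C the median of the members was 0.47, against 0.15 for all genes. In bulk RNA, a larger share of cells that express a gene and more of its RNA per cell cannot be told apart.

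**Figure D1:**
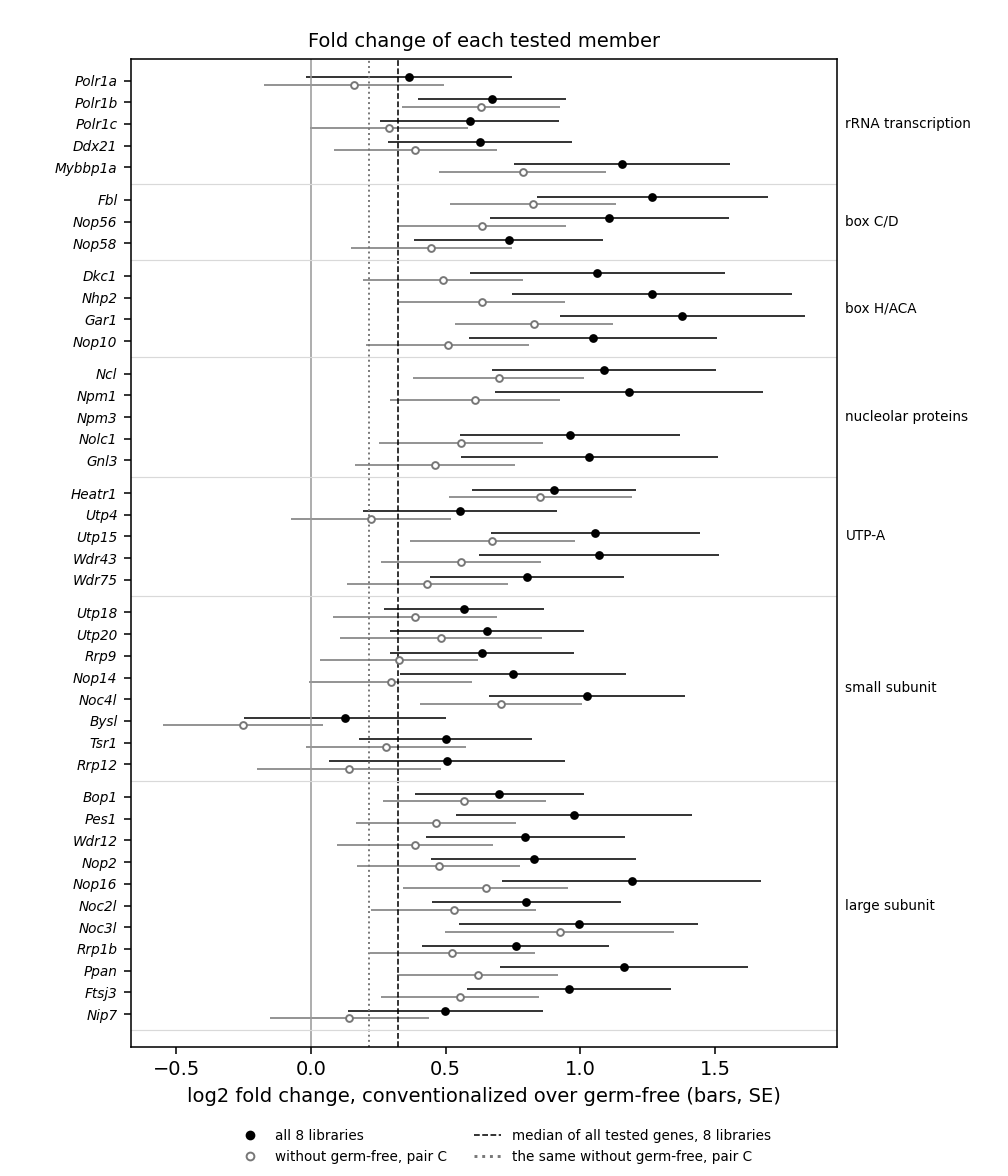
log2 fold change of conventionalized over germ-free animals (x axis) for each of the 40 tested members (y axis, by role), with SE as bars, from all 8 libraries (filled) and without germ-free C (open). All filled points lie right of 0; each open point lies left of its filled point, with Bysl at -0.25, and the vertical lines mark the medians of all tested genes, 0.32 and 0.22.

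Summed over the 41 genes, the level was 5792, 5127, 3766 and 6874 CPM in conventionalized A to D and 3133, 4165, 1199 and 3564 CPM in germ-free A to D. The groups overlapped at 1 point: conventionalized C lay below germ-free B. Pair C held the lowest library of each group. These sums rest on the TMM factors, which ran from 0.763 in conventionalized A to 1.40 in germ-free C. The factor was 1.16 in conventionalized C and 0.964 in germ-free B. Library size alone would thus place conventionalized C higher and germ-free B lower, and the overlap would be lost. Sums were not made for the other scalings. Germ-free C had the lowest level of all 8 libraries for 37 of 40 members, as it had for 49.4% of all tested genes. The highest level was in conventionalized D for 26 members, as for 30.1% of all tested genes.

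**Figure D2:**
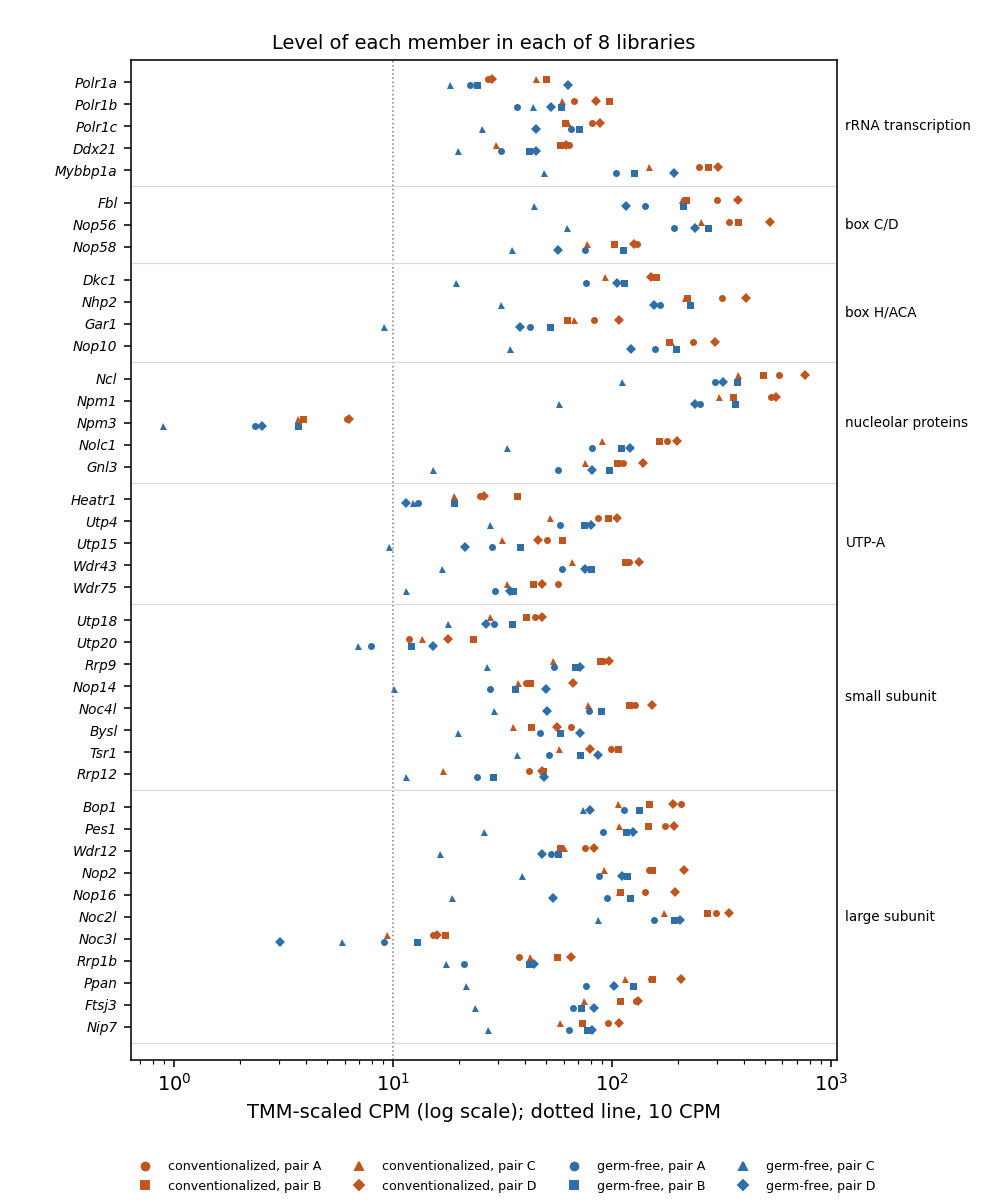
Level of each of the 41 members (y axis, by role) in each of the 8 libraries as TMM-scaled CPM (x axis, log scale), colored by group and with 1 symbol per littermate pair; the dotted line marks the 10 CPM minimum. Germ-free pair C (blue triangles) lies leftmost for most members, and Npm3 lies left of the minimum in every library.

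Within littermate pairs, the conventionalized animal had the higher level of 40 of 40 members in pair A (68.3% of all tested genes), of 32 in pair B (54.8%), of 40 in pair C (63.1%) and of 36 in pair D (70.4%). The median difference on the log2 scale was 0.84, 0.37, 1.42 and 0.78 in pairs A to D, where all tested genes had medians of 0.32, 0.062, 0.35 and 0.49. Pair B differed least, and pair C most. In 29 of 40 members the conventionalized animal was higher in all 4 pairs, against 28.4% of all tested genes. Full separation of the groups was rarer: in Polr1b, Gar1, Ncl and Wdr12, 4 of 40, every conventionalized library lay above every germ-free one, close to the 9.03% of all tested genes. The same 4 were separated without germ-free C (9.61% of all tested genes).

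**Figure D3:**
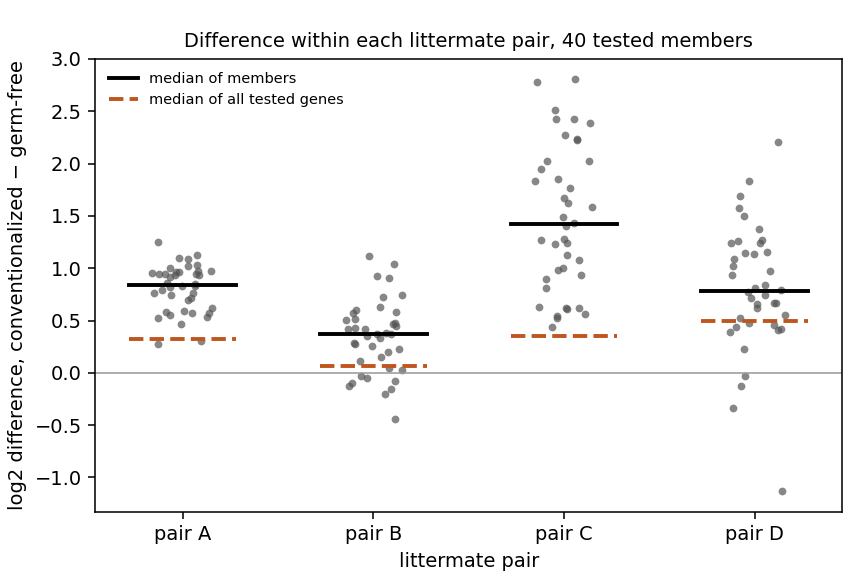
Difference between the conventionalized and the germ-free animal of each littermate pair (x axis) on the log2(CPM + 0.5) scale (y axis), 1 point per tested member; solid lines are medians of the 40 members and dashed lines medians of all tested genes. The median of the members lies above that of all genes in each pair, by the widest margin in pair C, and points below 0 occur in pairs B and D.

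The first step of ribosome synthesis, transcription of rRNA genes, was represented by 5 members, whose median log2 fold change was 0.63 (0.39 without germ-free C). Polr1a and Polr1b encode the largest subunits of RNA polymerase I and Polr1c a subunit shared with RNA polymerase III. Mybbp1a is a nucleolar protein that associates with RNA polymerase I, and Ddx21 is a nucleolar RNA helicase. Mybbp1a (ENSMUSG00000040463.16, chromosome 11, 72441355 to 72451768) was at 250.1, 275, 148 and 304 CPM in conventionalized and 105, 127, 48.9 and 192 CPM in germ-free libraries. Its groups overlapped, since conventionalized C lay below germ-free D, but it was higher in each pair (log2 fold change 1.15, SE 0.40, adjusted p = 0.108; 0.0214 with the block, 0.127 without germ-free C). Polr1b (ENSMUSG00000027395.15, chromosome 2, 129100995 to 129126594) was at 67.3, 97.3, 59.0 and 84.2 against 36.9, 58.7, 43.5 and 52.8 CPM. The groups did not overlap, though by a margin of under 1 CPM, and its lowest level was in germ-free A (log2 fold change 0.67, SE 0.27, adjusted p = 0.146). Without germ-free C its log2 fold change was 0.63 (adjusted p = 0.215). Polr1a, the catalytic subunit, behaved otherwise: it was at 27.2, 49.9, 44.8 and 28.4 against 22.5, 24.1, 18.3 and 62.7 CPM, with its highest value in a germ-free library, that of pair D (log2 fold change 0.36, SE 0.38, adjusted p = 0.528). Polr1c (73.2 ± 13.4 against 51.4 ± 20.5 CPM) and Ddx21 (53.16 ± 16 against 34.4 ± 11.4 CPM) had log2 fold changes of 0.59 and 0.63.

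Box C/D snoRNPs direct methylation of rRNA, with fibrillarin (Fbl) as the methyltransferase and Nop56 and Nop58 as the scaffold. The 3 genes had a median log2 fold change of 1.11 (0.63 without germ-free C). Fbl (ENSMUSG00000046865.7, chromosome 7, 28169710 to 28179269) was at 302, 218, 209 and 376 CPM in conventionalized and 141, 211, 44.1 and 116 CPM in germ-free libraries. The overlap was slight: germ-free B lay between the conventionalized libraries of pairs C and B (log2 fold change 1.27, SE 0.43, adjusted p = 0.1004; 0.0368 with the block). Without germ-free C the log2 fold change was 0.83 (adjusted p = 0.104). Nop56 (ENSMUSG00000027405.16, chromosome 2, 130274430 to 130279313) was at 341, 375, 255 and 524 against 192, 276, 62.3 and 238 CPM (log2 fold change 1.11, SE 0.44, adjusted p = 0.142; 0.0417 with the block, 0.246 without germ-free C). The groups overlapped between conventionalized C and germ-free B, yet Nop56 was higher in each pair, by 0.83, 0.44, 2.02 and 1.14 on the log2 scale in pairs A to D. Its partner Nop58 was at 109 ± 24.6 against 69.6 ± 32.5 CPM (0.73, adjusted p = 0.186) and was lower in the conventionalized animal of pair B.

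Box H/ACA snoRNPs convert uridine to pseudouridine, with dyskerin (Dkc1) as the enzyme and Nhp2, Gar1 and Nop10 as its partners. These 4 genes had the highest median of the roles, 1.16. Without germ-free C it was 0.57, below those of the box C/D genes and the abundant nucleolar proteins. Gar1 (ENSMUSG00000028010.16, chromosome 3, 129824912 to 129831396) had the lowest unadjusted p of all 40 members, 0.00909. Its levels were 82.8, 62.0, 66.8 and 108 CPM in conventionalized and 42.3, 51.9, 9.13 and 38.0 CPM in germ-free libraries, without overlap (log2 fold change 1.38, SE 0.45, adjusted p = 0.0948; 0.0335 with the block, 0.0789 without germ-free C). Nhp2 (ENSMUSG00000001056.3, chromosome 11, 51619735 to 51623714) was at 319, 219, 216 and 407 against 165, 227, 31.0 and 156 CPM. In pair B the germ-free animal had slightly more, and in pair C the germ-free level was far below all others (log2 fold change 1.26, SE 0.52, adjusted p = 0.148; 0.63 without that library). Dkc1 was at 139 ± 31.3 against 78.6 ± 42.6 CPM (1.06, adjusted p = 0.169 unblocked, 0.0465 blocked) and Nop10 at 225 ± 51.9 against 127 ± 68.8 CPM (1.05, adjusted p = 0.165).

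The abundant nucleolar proteins include nucleolin (Ncl), which binds the precursor rRNA, the histone and assembly chaperones nucleophosmin (Npm1) and Npm3, the snoRNP chaperone Nolc1, and the nucleolar GTPase nucleostemin (Gnl3), known from stem and dividing cells. The 4 tested genes of this role had a median log2 fold change of 1.06 (0.58 without germ-free C). Ncl (ENSMUSG00000026234.12, chromosome 1, 86344719 to 86359400) was at 579.6, 487, 377 and 757 CPM in conventionalized and 297, 374, 111 and 319.8 CPM in germ-free libraries. These did not overlap, with conventionalized C just above germ-free B (log2 fold change 1.09, SE 0.41, adjusted p = 0.131; 0.0448 with the block, 0.204 without germ-free C). Npm1 (ENSMUSG00000057113.13, chromosome 11, 33152287 to 33163206) was at 534, 358, 309 and 563 against 251, 365, 57.0 and 239 CPM. Here the groups overlapped through pair B, whose animals were nearly equal (log2 fold change 1.18, SE 0.50, adjusted p = 0.154; 0.61 without germ-free C). Nolc1 was at 158 ± 47.3 against 86.3 ± 39.3 CPM (0.96, adjusted p = 0.155 unblocked, 0.0355 blocked) and Gnl3 at 108 ± 26.1 against 62.5 ± 35.7 CPM (1.03, adjusted p = 0.178). Npm3 stayed under the minimum in every library, at 6.12, 3.88, 3.69 and 6.30 against 2.33, 3.69, 0.889 and 2.52 CPM, and was not tested in the main comparison. With a minimum of 1 CPM its log2 fold change was 1.01 (SE 0.49, limma adjusted p = 0.237).

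The UTP-A complex binds the precursor first, while it is still being transcribed. Its 5 members here, Heatr1, Utp4, Utp15, Wdr43 and Wdr75, had a median log2 fold change of 0.90 (0.56 without germ-free C), and each was higher in the conventionalized animal of all 4 pairs. Heatr1 (ENSMUSG00000050244.8, chromosome 13, 12395027 to 12440289) was at 25.1, 36.6, 19.0 and 26.0 CPM in conventionalized and 13.0, 19.1, 12.3 and 11.4 CPM in germ-free libraries. It overlapped only through conventionalized C and germ-free B, which were almost equal (log2 fold change 0.90, SE 0.31, adjusted p = 0.1003). Like Polr1b it changed little without germ-free C (0.85, adjusted p = 0.131). Utp15 (ENSMUSG00000041747.2, chromosome 13, 98246845 to 98263041) was at 50.7, 59.2, 31.4 and 45.7 against 28.2, 38.0, 9.53 and 21.2 CPM (log2 fold change 1.06, SE 0.39, adjusted p = 0.122; 0.0338 with the block, 0.204 without germ-free C). Conventionalized C lay below germ-free B. Wdr43 was at 108 ± 29.3 against 57.7 ± 28.8 CPM (1.07, adjusted p = 0.151 unblocked, 0.0344 blocked), Wdr75 at 45.2 ± 9.85 against 27.5 ± 11.04 CPM (0.80) and Utp4 at 84.7 ± 23.1 against 60.0 ± 23.6 CPM (0.55).

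Later small subunit factors had the lowest median of the roles, 0.60 over 8 genes, and 0.31 without germ-free C. Noc4l (ENSMUSG00000033294.11, chromosome 5, 110648418 to 110653417), partner of Nop14 in the small subunit pathway, was at 127, 119.6, 77.4 and 152 CPM in conventionalized and 78.7, 88.8, 28.9 and 50.7 CPM in germ-free libraries. Only conventionalized C fell within the germ-free range (log2 fold change 1.03, SE 0.36, adjusted p = 0.113; 0.0351 with the block, 0.163 without germ-free C). Utp18 (ENSMUSG00000054079.12, chromosome 11, 93859243 to 93885766), a protein of the small subunit processome, was at 44.6, 40.3, 27.6 and 47.8 against 28.9, 35.0, 17.8 and 26.4 CPM (log2 fold change 0.57, SE 0.30, adjusted p = 0.216). Again the conventionalized value in pair C lay within the germ-free range. Bysl (ENSMUSG00000023988.8, chromosome 17, 47599331 to 47611492), which encodes bystin, a late small subunit factor, was the member whose fold change lay below the median of all genes. It was at 64.8, 42.4, 35.2 and 56.0 against 46.7, 57.6, 19.9 and 71.0 CPM, with its highest value in germ-free D (log2 fold change 0.13, SE 0.37, adjusted p = 0.836). The sign of Bysl was negative without germ-free C (-0.25, adjusted p = 0.661) and with library size only (-0.11). An exon of Bysl overlaps Ccnd3 on the other strand by up to 361 bases, as exons of Tsr1 and Heatr1 overlap Srr and Lgals8, and reads from there could not be assigned by strand here. The log2 fold changes of the processome proteins Utp20 and Rrp9 and of Nop14 were 0.65, 0.63 and 0.75, and those of Tsr1 and Rrp12, which act late in maturation and export, 0.50 and 0.51, with adjusted p from 0.113 for Noc4l to 0.836 for Bysl over the 8 genes.

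Large subunit factors were the most numerous, 11 members with a median log2 fold change of 0.83 (0.53 without germ-free C). Bop1, Pes1 and Wdr12 form the PeBoW complex, Nop2 is an rRNA methyltransferase, Noc2l and Noc3l are nucleolar complex proteins, and Ftsj3 and Ppan act in precursor processing. Ppan (ENSMUSG00000004100.11, chromosome 9, 20888175 to 20892178) was at 149.8, 152, 114 and 207 CPM in conventionalized and 76.3, 125, 21.5 and 102 CPM in germ-free libraries. Germ-free B overlapped the conventionalized range from pair C (log2 fold change 1.16, SE 0.46, adjusted p = 0.140; 0.0400 with the block, 0.235 without germ-free C). Ftsj3 (ENSMUSG00000020706.13, chromosome 11, 106249142 to 106256079) was at 128, 109, 74.4 and 131 against 66.6, 71.8, 23.7 and 82.8 CPM (log2 fold change 0.96, SE 0.38, adjusted p = 0.140; 0.0387 with the block, 0.284 without germ-free C). Here conventionalized C lay below germ-free D. Within PeBoW, Bop1 was at 163 ± 44.4 against 99.9 ± 28.3 CPM (0.70), Pes1 at 155 ± 36.5 against 89.3 ± 44.5 CPM (0.98) and Wdr12 at 69.2 ± 12.04 against 43.3 ± 18.3 CPM (0.80). The 3 partners differed in their germ-free level in pair C, which was 26.1 CPM for Pes1 and 16.4 CPM for Wdr12, each the lowest of 8 by a wide gap, and 73.9 CPM for Bop1, next to 79.1 CPM in germ-free D. Noc2l was at 271 ± 71.1 against 159 ± 52.7 CPM (0.80) and Nop2 at 151 ± 49.3 against 88.3 ± 35.4 CPM (0.83). Noc3l was near the minimum, at 15.2, 17.3, 9.34 and 15.9 against 9.06, 12.8, 5.85 and 3.05 CPM, and entered the test through 3 conventionalized libraries and 1 germ-free library, so its fold change (0.99) is partly set by the filter. Nop16, Rrp1b and Nip7 had log2 fold changes of 1.19, 0.76 and 0.50.

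Per kilobase of annotated exon sequence, mean levels over the 8 libraries ranged from 1.33 CPM for Utp20 to 189.9 ± 97.5 CPM (SD, n = 8 libraries of both groups) for Nhp2. After Nhp2 came Nop10 (158 ± 69.3) and Npm1 (126 ± 61.4), whose spreads overlap. At the other end were the large proteins Heatr1 (2.59), Polr1a (2.92) and the factors Noc3l (2.78) and Npm3 (3.10). Levels relative to the other members were steadier for some than for others. After the mean log2 level of the tested members was subtracted in each library, the SD over the 8 libraries was 0.129 for Nop2, 0.137 for Wdr75, 0.148 for Ftsj3 and 0.160 for Noc2l, the 4 smallest. It was largest for Polr1a (0.719) and Noc3l (0.656), both of low level per kilobase. Utp20 and Heatr1, also at that end, had smaller values (0.441 and 0.483). These 4 steady genes and 2 variable ones were picked after their values were seen.

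The members share features of position that did not enter the choice. Of the 41 genes, 8 (Nop56, Nop58, Dkc1, Ncl, Gnl3, Wdr43, Tsr1 and Ppan) hold annotated snoRNA genes within their span and on their own strand, 23 snoRNA genes in all, with 5 in Nop56 and 4 in Nop58. That is 19.5% of members, against 1.92% of 9693 tested protein-coding genes. Such snoRNAs are released from introns of their host. Nop56, Nop58 and Dkc1 encode snoRNP proteins themselves, and the other 5 hosts have other roles. The levels of the snoRNAs themselves were not analysed here. Of the 8 hosts, Nop56, Dkc1, Ncl, Wdr43 and Ppan were among the 12 members that rose with the block, and Nop58, Gnl3 and Tsr1 were not (log2 fold changes 0.73, 1.03 and 0.50).

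Promoter sequence was searched for the E-box CACGTG, the site bound by Myc and its relatives, because Myc is known to regulate genes of this kind. The motif reads the same on both strands, and the window was the 250 bases upstream of each RefSeq start (GRCm38.p6). Windows were available for 37 of the 41 members, all but Fbl, Npm1, Bop1 and Rrp12. Of these 37, 2 (5.41%) held the motif, against 10.3% of 7827 tested genes with a window and 6.86% of all 27025 genes with one. The 2 members were Nop2 (chr6:125131633-125131882, plus strand) and Utp18 (chr11:93885767-93886016, minus strand). Their windows are shown 5′ to 3′, with the motif in capitals, beginning 60 bases before the start of Nop2 and 20 bases before that of Utp18.
Nop2: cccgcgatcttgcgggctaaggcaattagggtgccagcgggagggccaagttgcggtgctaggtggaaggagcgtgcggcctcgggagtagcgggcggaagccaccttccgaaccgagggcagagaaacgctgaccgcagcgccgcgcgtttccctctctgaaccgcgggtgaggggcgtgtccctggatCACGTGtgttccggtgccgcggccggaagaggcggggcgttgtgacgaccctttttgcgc
Utp18: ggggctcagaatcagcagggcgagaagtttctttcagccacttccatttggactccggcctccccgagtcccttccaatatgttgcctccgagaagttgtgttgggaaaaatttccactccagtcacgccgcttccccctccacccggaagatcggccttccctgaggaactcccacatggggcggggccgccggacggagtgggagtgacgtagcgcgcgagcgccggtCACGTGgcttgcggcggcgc
A match describes the letters only, and the window leaves out introns and distal sites.

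Other ribosome biogenesis genes, from lists of the same pathway, were examined in the same way. Of 123 such genes with values, 121 were tested. Of these, limma called 0 higher and 0 lower (1.16% of all tested genes higher, 4.92% either way). An unadjusted p under 0.05, in either direction, was found for 49 (2793 of all 10053 tested genes). Fold changes were positive for 118 (70.2% of all tested genes), with a median of 0.66, under that of the members. Members and lists were chosen with earlier results of these data known, so the ranking of their medians is descriptive only. With the block 21 rose and 0 fell (8.08% of all tested genes higher, 13.1% either way). With the block and pair C left out limma called 0 of 121 (1.85% of all genes higher, 4.86% either way). The median was then 0.57, and 37 had an unadjusted p under 0.05 in either direction (1876 of all 9429 tested genes). Without germ-free C the median was 0.42 and 1 gene rose, Exosc5 (2.42% of all tested genes were called higher). By role, the medians were 0.61 for 12 further genes of RNA polymerase I and its factors, 0.72 for 42 small subunit genes, 0.61 for 45 large subunit genes, 0.92 for 13 genes of the nuclear exosome, which trims rRNA ends, and 0.65 for 9 snoRNP assembly genes. The polymerase I subunit genes Cd3eap (47.1 ± 14.1 against 21.6 ± 10.4 CPM, adjusted p = 0.0818 unblocked, 0.0344 blocked) and Polr1e (33.6 ± 5.78 against 14.8 ± 10.3 CPM, adjusted p = 0.0847 unblocked, 0.0409 blocked) had the lowest p of their list. Among small subunit genes these were Wdr36 (75.5 ± 15.1 against 39.2 ± 8.92 CPM, adjusted p = 0.0690) and Utp14a (30.6 ± 10.0 against 12.5 ± 6.77 CPM, adjusted p = 0.0904), and among large subunit genes Nifk (115 ± 43.4 against 52.5 ± 29.1 CPM, adjusted p = 0.121) and Rrp15 (73.6 ± 18.4 against 32.1 ± 21.1 CPM, adjusted p = 0.121). The exosome was led by Exosc5 (131 ± 41.6 against 56.8 ± 33.9 CPM, adjusted p = 0.0827, 0.0476 without germ-free C) and the helicase Mtrex (72.7 ± 17.6 against 33.9 ± 21.6 CPM, adjusted p = 0.102), and snoRNP assembly by Pih1d1 (101 ± 26.2 against 50.7 ± 28.2 CPM, adjusted p = 0.113) and the ATPase Ruvbl2 (255 ± 59.2 against 125 ± 58.8 CPM, adjusted p = 0.115). The 3 genes with negative fold changes, Gnl3l (-0.66), Nvl (-0.061) and Lsg1 (-0.04), belong to the large subunit list. Gnl3l, a paralog of Gnl3, was lower in the conventionalized animal of all 4 pairs (33.8 ± 6.48 against 54.0 ± 12.2 CPM, adjusted p = 0.149).

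Among regulators, Myc was at 367, 374, 316 and 614 CPM in conventionalized and 196, 305, 44.0 and 324 CPM in germ-free libraries. It was higher in the conventionalized animal of each pair without passing the test (log2 fold change 1.24, SE 0.54, adjusted p = 0.163; 0.0533 with the block, 0.59 and 0.292 without germ-free C). Of 5 tested genes of the Myc network, limma called 0, with Myc and Mxi1 at an unadjusted p under 0.05. Mxi1, a Max partner that opposes Myc, was at 45.8 ± 4.997 against 30.5 ± 7.12 CPM (0.60, adjusted p = 0.168), and the related repressor Mxd1 had a log2 fold change of -0.50. When ribosome assembly is disturbed, free ribosomal proteins such as Rpl5 and Rpl11 stabilise p53 through Mdm2. Of these genes only the p53 target and cell-cycle inhibitor Cdkn1a was called, and it fell: it was at 263, 109.9, 149 and 204 CPM in conventionalized and 604, 389, 493 and 313 CPM in germ-free libraries, without overlap (log2 fold change -1.34, SE 0.36, adjusted p = 0.0465; 0.00619 without germ-free C). The call was lost with the block and pair C left out (log2 fold change -1.20, adjusted p = 0.0773). Trp53 was at 268 ± 65.6 against 147 ± 57.9 CPM (adjusted p = 0.132), Mdm2 at 38.2 ± 8.74 against 45.2 ± 8.15 CPM (adjusted p = 0.542), and Rpl5 and Rpl11 had log2 fold changes of 1.17 and 0.94.

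Fold changes were positive for all 10 proliferation and all 6 stem cell markers, as for 70.2% of all tested genes. Among conventionalized libraries, C was lowest and D highest in the members (3766 and 6874 CPM) and in summed proliferation markers (1436 and 2163 CPM). In summed stem cell markers D was also highest (8699.5 CPM), but A was lowest (4231 CPM, of which 3254 CPM came from Olfm4). Germ-free libraries ranked B, D, A and C from high to low in each of these sums. Of 10 proliferation markers 4 rose (Mki67, Cdk1, Aurkb and Ccnb1), 0 fell, and 6 rose without germ-free C. Of all tested genes 1.16% were called higher, and 2.42% without germ-free C. Their summed level was 1436 to 2163 CPM in conventionalized and 214 to 1093 CPM in germ-free libraries, which did not overlap, with 0 markers at 0. Mki67 itself was at 95.9 ± 37.6 against 31.3 ± 9.80 CPM (adjusted p = 0.0192, 0.00154 without germ-free C). Of 6 stem cell markers 1 rose, Lgr5 (263 ± 139.7 against 67.1 ± 36.9 CPM, adjusted p = 0.0397, 0.111 without germ-free C), and the list summed to 4231 to 8699.5 CPM against 667 to 4582 CPM, which overlapped. Enteroendocrine markers went the other way: 6 of 8 fell, where 378 of all 10053 tested genes were called lower. These markers summed to 7404 to 19030.5 CPM in conventionalized and 32362 to 74860.4 CPM in germ-free libraries. Enterocyte markers were mixed with all 8 libraries: of 9 tested, 3 fell (Sis, Krt20 and Slc15a1), while 5 fold changes were positive. The median log2 fold change was 0.044. With conventionalized A and germ-free C both left out, 1 of 7 was positive and 2 fell, with a median of -0.69. With library size only, 3 of 8 were positive (median -0.65). Of 6 Paneth cell markers 1 rose, Mptx2 (limma adjusted p = 0.0370), a call lost without germ-free C (0.296). In neither the 7 goblet nor the 5 tested tuft cell markers did limma call any (0 had an unadjusted p under 0.05). Without both conventionalized A and germ-free C, 2 goblet cell markers fell (Agr2 and Tff3), as did 407 of all 9610 genes tested there. Of 6 stromal and endothelial markers 1 reached the minimum, Pecam1, which encodes the CD31 of the gate. It was at 4.17, 3.84, 9.84 and 2.15 CPM in conventionalized and 16.9, 13.4, 25.3 and 24.04 CPM in germ-free libraries, and it reached the minimum through the 4 germ-free libraries alone, so no test is given. Germ-free C, lowest for the ribosome biogenesis genes, was also lowest in summed proliferation markers (214 CPM) and stem cell markers (667 CPM), but not highest in enteroendocrine markers (44758 CPM). The same library was lowest in summed Paneth cell markers (2306 CPM), in Sox9 (137 CPM) and for 49.4% of all tested genes. It was not lowest in enterocyte, goblet or tuft cell markers. The part of cell composition in the differences of the members was not tested.

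**Figure D4:**
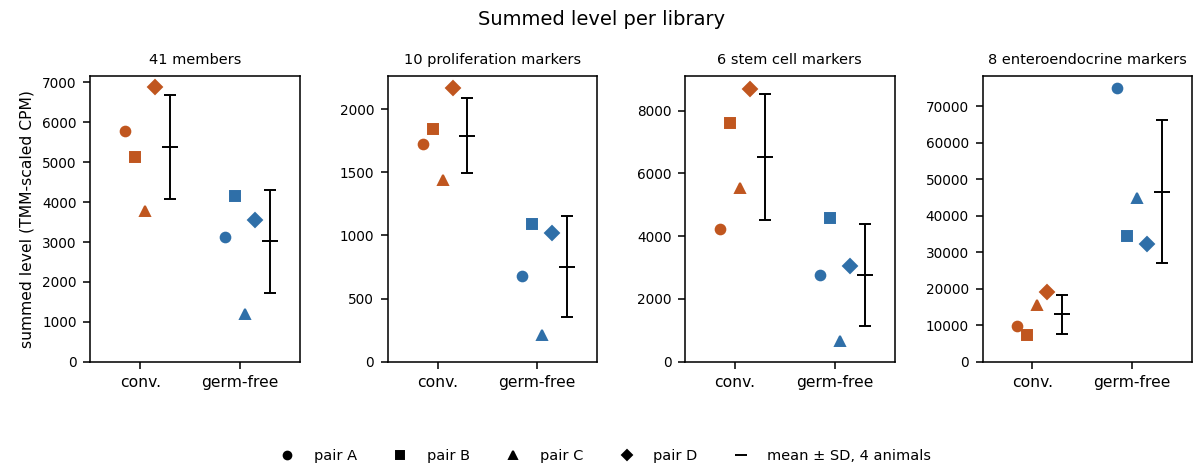
Summed level per library, in TMM-scaled CPM (y axes from 0, on separate scales), of the 41 members, 10 proliferation markers, 6 stem cell markers and 8 enteroendocrine markers in conventionalized (conv.) and germ-free animals, 1 symbol per littermate pair, with mean ± SD of 4 animals. The members overlap between the groups at 3766 and 4165 CPM, and germ-free pair C is lowest in the first 3 panels.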

How the data were processed

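The authors deposited 1 gene-level table for all 8 libraries (Salmon after alignment with STAR 2.4.2a to mm10, with Trimmomatic 0.36, R 3.3.1 and DESeq2 1.12.4, per the submitters' processing notes and the series text); the annotation and the strand used in counting are not given in the sources used here. Its values are a signal, not whole reads: the deposited estimates appear divided by 1 factor for each library and by a further one for each multi-transcript gene. Whole multiples of 1 step made up 99.8% of single-transcript values (tolerance 0.02) and 23.6% of the others, so no count model was run. The approximate depths rest on that step, and precision is limited by 4 animals per group.

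Gene identifiers were matched to GENCODE M21 on GRCm38 (48058 of 48440 matched, 10128 at 0 in every library). Values were scaled with TMM factors to CPM, kept at 10 CPM or more in at least 4 libraries, and tested two-sided with limma 3.58.1 (R 4.3.3) with trend and robust variance on log2(CPM + 0.5), Benjamini-Hochberg adjusted, called under 0.05. The fit without a block was tested on simulated data first. Those data held no outlying library and no littermate pairs, so they do not cover the effect of germ-free C or the block. Alternatives covered scaling, pseudocount, expression minimum, array quality weights, littermate block and left-out libraries. The labels pair animals as littermates; correlations of deviations within pairs A to D were 0.14, -0.16, 0.31 and -0.0063. The members and every gene list were chosen with earlier results of these data known, so no p is given for a list. All members are named by role, with values per animal for the 2 of lowest p in each role and for Bysl, the only tested member under the median of all genes; Polr1a, Npm3, Noc3l and Wdr12 were singled out after their values were seen, as were Gnl3l, Nvl and Lsg1. Of each other pathway list the called genes or the 2 of lowest p are named. Promoter windows are RefSeq's.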

Additional observations from a re-analysis of the deposited data

Results flagged for a closer look

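Among 84 groups of 4 libraries (41 members and their sum, in each condition), 5 held 1 library far from the other 3, where chance flags about 1 in 20. In 4 of these the library was the conventionalized one of pair C, which was low. For Ddx21 the gap to the nearest other library on the log2(CPM + 0.5) scale made up 0.886 of the range of the group, for Dkc1 0.911, for Rrp9 0.83 and for Rrp12 0.859. Ddx21 was at 29.4 CPM there and Rrp12 at 16.9 CPM, with the other 3 conventionalized libraries at 58.1 to 63.4 CPM and 41.6 to 48.2 CPM. The fifth case was Wdr12 in germ-free C, with a gap on that scale of 0.86 of the range, at 16.4 CPM.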

How the results depend on the processing

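Of 439 fold changes of members under 11 other settings, 416 kept their direction and side of the threshold, 20 passed it and 3 changed sign; of 316 with 1 library left out, 312 were kept, 2 passed and 2 changed sign. Every change of sign was Bysl, at -0.11 with library size only, -0.39 without 2 libraries that stood apart in earlier work (conventionalized A and germ-free C), -0.091 with the littermate block and pair C left out, and -0.25 to 0.35 with 1 library left out. Members called numbered 0 in the fit without a block, 12 with the replicate block, 8 with array quality weights (Polr1b, Mybbp1a, Fbl, Gar1, Ncl, Nolc1, Heatr1 and Ftsj3) and 0 to 2 with 1 library left out, the 2 being Fbl (limma adjusted p = 0.0403) and Gar1 (0.0470) without germ-free B, where 4.17% of all genes were called higher (7.61% with the weights). All genes called numbered 495 (117 higher, 378 lower), 1317 with the block (812 higher, 505 lower), 1373 with weights (765 and 608) and 182 to 782 with 1 library left out; upper-quartile scaling split 671 calls into 263 higher and 408 lower. Without 1 library, the count moved by over 1.5 times for conventionalized A (304), B (190), C (250) and D (280) and germ-free A (182) and B (782). Other ribosome biogenesis genes called numbered 0, then 21 with the block, 15 with weights, 1 with upper-quartile scaling, 2 without both libraries that stood apart, 0 with the block and pair C left out, and 0 to 7 with 1 library left out. The median fold change of the members was 0.52 to 1.05 with 1 library left out. The cause of these differences was not tested. The deposited values hold no read counts, so intervals from counting were not given, and genes near 10 CPM, such as Noc3l, carry the least information.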

Other observations

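Some members share sequence with neighbours on the opposite strand. Exons of 9 of the 41 members overlap exons of another gene at 10 CPM or more. Bysl shares up to 361 bases with Ccnd3, the cyclin D3 gene, at 129 CPM, Tsr1 up to 616 bases with Srr (13.9 CPM), and Heatr1 up to 155 bases with Lgals8 (38.0 CPM). The kit is not stated to keep the strand, and reads from such stretches cannot be told apart between the genes.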
